A study of Mus musculus with 21 samples.

Results

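The genes described here are 42 genes of DNA replication and of the step from G1 into S phase, taken by name from the 49315 gene identifiers of the deposited count tables. They load and activate the replicative helicase, copy and join DNA, supply nucleotides, drive entry into S phase, or rebuild chromatin behind the fork. All 42 matched 1 identifier each, and all 42 were among the 17755 genes that passed the filter on low counts. The libraries came from epidermal sheets of mouse skin, in a series on Tfap2a and Tfap2b, which encode AP-2α and AP-2β, a pair of transcription factors. The comparison set 3 libraries labelled K14CreTfap2afl/flTfap2bfl/fl (called here the double knockout) against 3 labelled as strain-specific control with genotype WT, all from mice 6 months old. In the former group K14Cre, a Cre recombinase under the promoter of the basal keratin gene Krt14, targets floxed alleles of both genes, so only cells in which that promoter was active are targeted. Whether the control mice carried Cre or floxed alleles was not stated. A further 2 libraries, labelled K14CreTfap2bfl/fl at 3 weeks (Tfap2b knockout), are given as values only. The remaining 13 files, all from 3 weeks, listed every gene at 0.

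Replication starts when the origin recognition complex, with CDC6 and CDT1, loads the MCM helicase, a ring of the proteins of Mcm2 to Mcm7, onto DNA in G1. At the start of S phase the ring is joined by CDC45 and the GINS complex, and the polymerases follow, held on the template by the sliding clamp PCNA. Many genes of this machinery are transcribed under the control of E2F factors, which are released from retinoblastoma proteins when cyclins D and E act in G1. In the epidermis, cell division takes place mainly in the basal layer and in hair follicles, and keratinocytes leave the cycle as they move upward.

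The 6 libraries from 6 months held 11318181 to 17746284 counts, and single members held 6 to 1114 counts per library, so values of the scarce ones are imprecise. Tfap2a was at 165, 140 and 210 CPM (counts scaled to a library total of 1000000) in the controls and at 229, 213 and 309 CPM across those labelled double knockout. Tfap2b was at 57.3, 86.6 and 71.0 CPM across the control libraries and at 53.8, 57.2 and 56.9 CPM across those labelled double knockout. Neither passed the test (adjusted p 0.118 and 0.111 by edgeR), so counts over the whole genes did not show their loss, and directions below are those of the labels. Control replicates 1 and 2 held 1.61 and 3.19 counts per exonic kb in odorant and vomeronasal receptor genes, whereas control replicate 3 held 0.147 and those labelled double knockout 0.106 to 0.195. Control replicate 3 had rank correlations of 0.944 to 0.951 with the libraries labelled double knockout and of 0.942 and 0.947 with the other controls. Markers of epidermis were present in every library, with a summed level of 9754 to 21540 CPM for 10 genes of basal keratinocytes. The labels do not say whether the libraries of a group came from separate mice, so the p-values measure the spread between these libraries, which may be technical.

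Of the 42 replication and G1 to S genes, 11 were higher in the libraries labelled double knockout and none was lower (edgeR's quasi-likelihood test, adjusted p below 0.05 over all genes tested). They comprised all 6 subunit genes of the MCM ring, together with Pole, Lig1, E2f1, Chaf1a and Uhrf1, and they were 1.54-fold to 3.56-fold higher. Among all genes tested, 6.26% were higher by the same rule and 8.59% lower, whereas the 11 made up 26.2% of the members. Before adjustment 17 members were higher and 2 lower at p below 0.05 by edgeR. Of the 17755 genes tested, 5691 were below 0.05 in either direction, so such values were common. The median log2 fold change of the 42 genes was 0.47, against -0.035 over all genes tested. Every library labelled double knockout lay above every control for 23 members (54.8%, against 22.5% of all genes tested), for 1 member all lay below (16.3% of all genes tested), and in 18 members the groups overlapped. All 11 called members were among the 23.

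The count of 11 depended on single libraries. It was 7 without control replicate 1, 5 without control replicate 2, 16 without control replicate 3, and 2, 4 and 8 without replicates 1, 2 and 3 of the libraries labelled double knockout. Mcm2 and Mcm3 passed the test in each of these fits and in every other alternative that was run. With control replicates 1 and 2 both left out, so that 1 control was taken to vary like the other group, 4 members passed, namely Mcm2, Mcm3, Mcm5 and E2f1. With the density of counts in receptor genes subtracted from every gene by its exonic length, 9 passed, and Mcm4 and Uhrf1 did not.

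**Figure D1:**
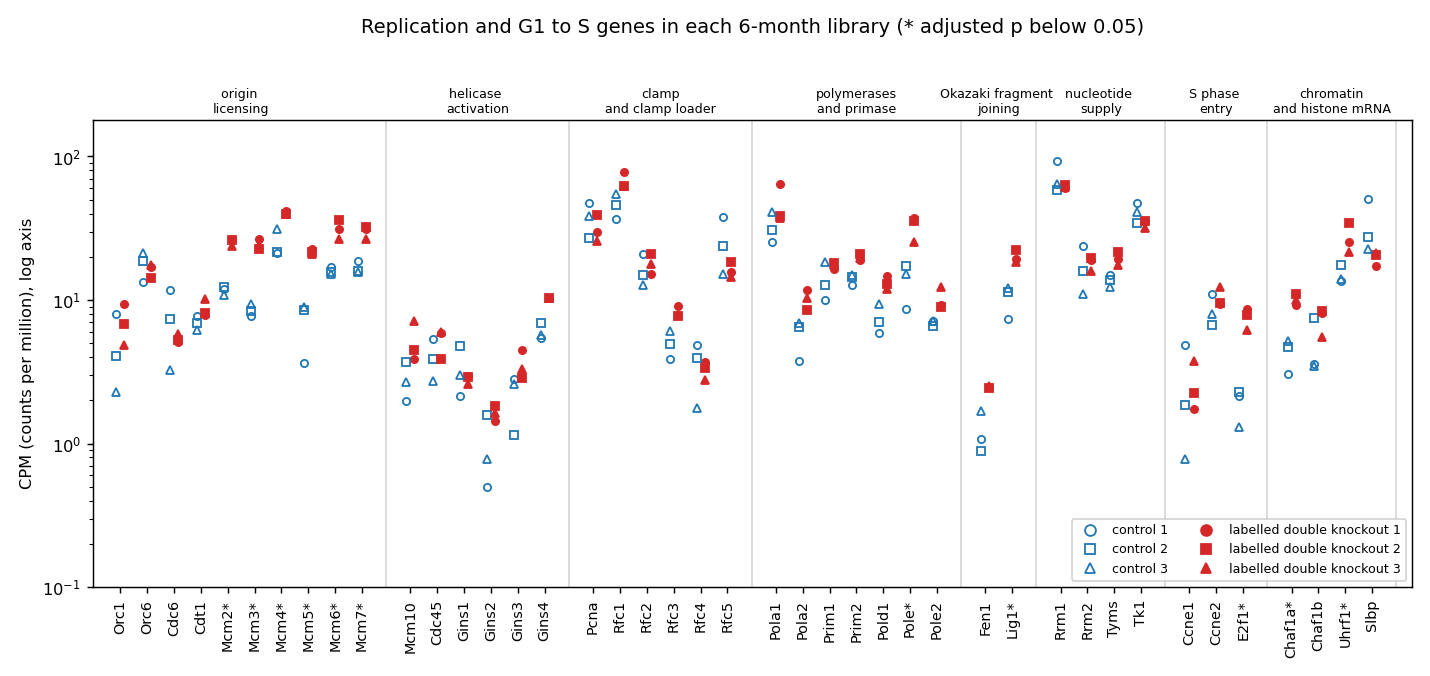
CPM of each of the 42 genes (log axis) in the 6 libraries from 6 months, grouped by role. Open blue symbols are the controls, filled red symbols the libraries labelled double knockout, and shapes give the replicate number. The red symbols lie above all blue ones for 23 genes, including the 11 marked with an asterisk.

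**Figure D2:**
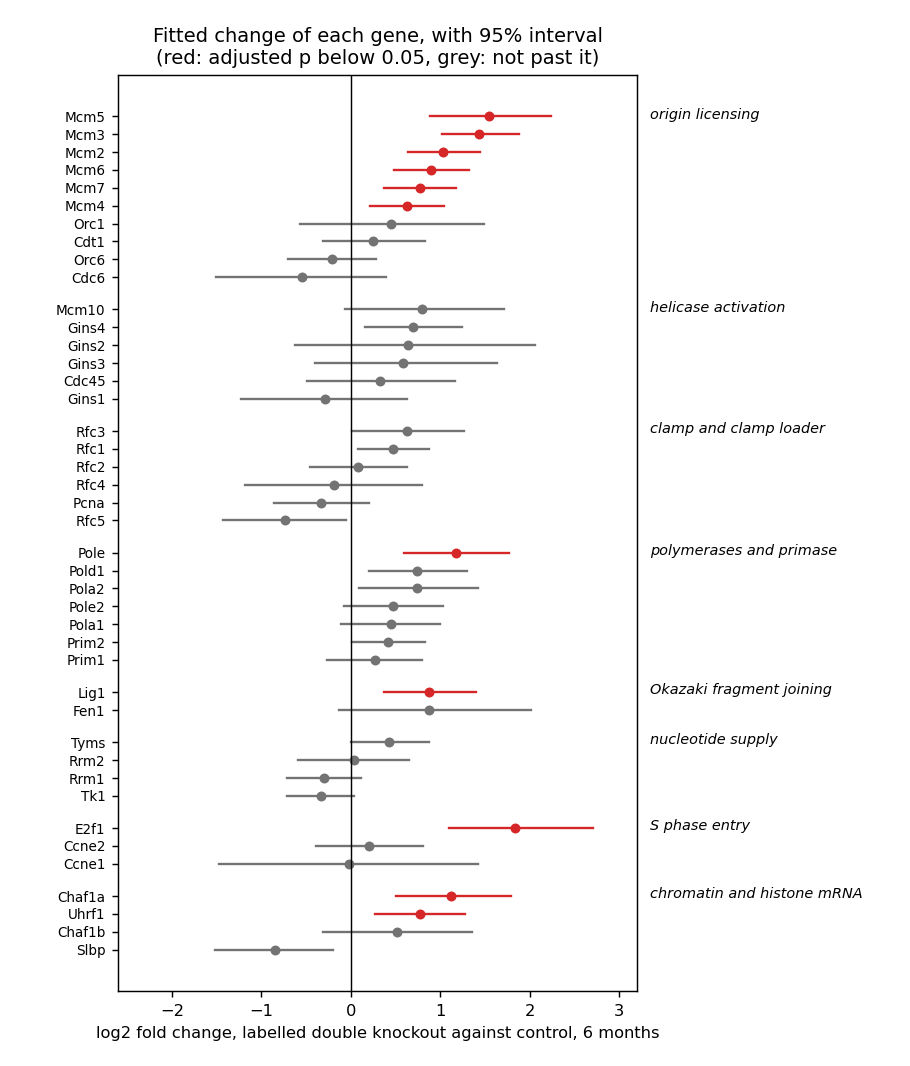
Fitted log2 fold change of each gene (points) with its 95% interval (bars), libraries labelled double knockout against control. The 11 genes in red, from Mcm4 at 0.62 to E2f1 at 1.83, passed the test over all genes.

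The MCM ring is the core of the replicative helicase, and its 6 genes rose together, by 1.54-fold to 2.91-fold. Mcm2 (ENSMUSG00000002870, chromosome 6, 88883474 to 88898780, minus strand) was at 12.0, 12.4 and 10.8 CPM in control replicates 1 to 3. The libraries labelled double knockout held 26.2, 26.1 and 23.8 CPM, a rise of 1.03 on the log2 scale (SE 0.18, adjusted p 0.00740 by edgeR). Within each group the 3 values lay close together, and the groups did not overlap. Mcm3 (ENSMUSG00000041859, chromosome 1, 20802968 to 20820312, minus strand) was at 7.72, 8.39 and 9.38 CPM across the control libraries and at 26.6, 22.7 and 24.3 CPM across those labelled double knockout. Its log2 fold change of 1.44 (SE 0.19) had the lowest adjusted p of all members, 0.00211 by edgeR. Mcm5 (ENSMUSG00000005410, chromosome 8, 75109569 to 75128439, plus strand) was at 3.65, 8.48 and 8.92 CPM across the control libraries and at 22.7, 21.8 and 20.96 CPM across those labelled double knockout. Control replicate 1 held less Mcm5 than the other controls, 44 counts against 96 and 137, and the groups were far apart with or without it. The log2 fold change of Mcm5 was 1.54 (SE 0.30, adjusted p 0.0116 by edgeR), and 1.25 without control replicate 1. Without replicate 1 of the libraries labelled double knockout it was 1.56 and no longer passed (adjusted p 0.0548 by edgeR).

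Mcm6 (ENSMUSG00000026355, chromosome 1, 128331590 to 128359664, minus strand) was at 16.9, 15.6 and 15.1 CPM across the control libraries and at 31.1, 36.3 and 26.5 CPM across those labelled double knockout. Mcm7 (ENSMUSG00000029730, chromosome 5, 138164583 to 138172422, minus strand) was at 18.6, 15.9 and 15.6 CPM against 31.4, 32.5 and 26.6 CPM. For both genes the controls lay close together and replicate 3 was the lowest library of its group. Their log2 fold changes were 0.89 (SE 0.19, adjusted p 0.0145 by edgeR) and 0.77 (SE 0.18, adjusted p 0.0221 by edgeR). Both missed the threshold without control replicate 2 (0.89 and 0.74) and without replicate 1 (0.95 and 0.79) or replicate 2 (0.81 and 0.75) of the libraries labelled double knockout. Mcm4 (ENSMUSG00000022673, chromosome 16, 15623897 to 15637400, minus strand) changed least of the ring. It was at 21.3, 21.6 and 31.4 CPM across the control libraries and at 41.7, 39.5 and 39.7 CPM across those labelled double knockout, with control replicate 3 nearest to the other group. Its log2 fold change of 0.62 (SE 0.19, adjusted p 0.0487 by edgeR) was just inside the threshold and was lost in 10 of 16 alternatives. Without control replicate 1 or 2 it was 0.53 and 0.54, without replicates 1, 2 and 3 of the libraries labelled double knockout 0.65, 0.67 and 0.66, and against control replicate 3 alone 0.30.

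Per kb of exon, the ring's subunits were not at 1 level. The length used is that of all annotated exonic bases of a gene, so levels and their order between genes depend on the annotation. Mcm2, with 6956 such bases, had a control mean of 11.7 CPM, and Mcm3, with 3752, one of 8.50 CPM, the reverse of their order per kb. In the controls the mean levels ran from 1.68 CPM per kb for Mcm2 and 1.76 for Mcm5 through 2.26 for Mcm3, 3.41 for Mcm6 and 3.78 for Mcm7 to 6.91 for Mcm4. In the libraries labelled double knockout the same genes were at 3.65, 5.46, 6.54, 6.70, 6.81 and 11.2 CPM per kb. The order was thus the same in both groups, and the highest was 4.10-fold the lowest in the controls and 3.08-fold in the other group. In the controls the values overlapped between Mcm2 and Mcm5, between Mcm5 and Mcm3 and between Mcm6 and Mcm7, whereas Mcm6 lay above Mcm3 and Mcm4 above Mcm7 in every library. Among the libraries labelled double knockout, Mcm3, Mcm6 and Mcm7 overlapped, and the other neighbours in the order were apart. Mcm7 shares 7.25% of its exonic bases with Ap4m1 on the opposite strand, and smaller parts with Cops6 and with the microRNA genes Mir25 and Mir93 inside it, and whether reads were assigned by strand was not given in the sources used here.

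**Figure D3:**
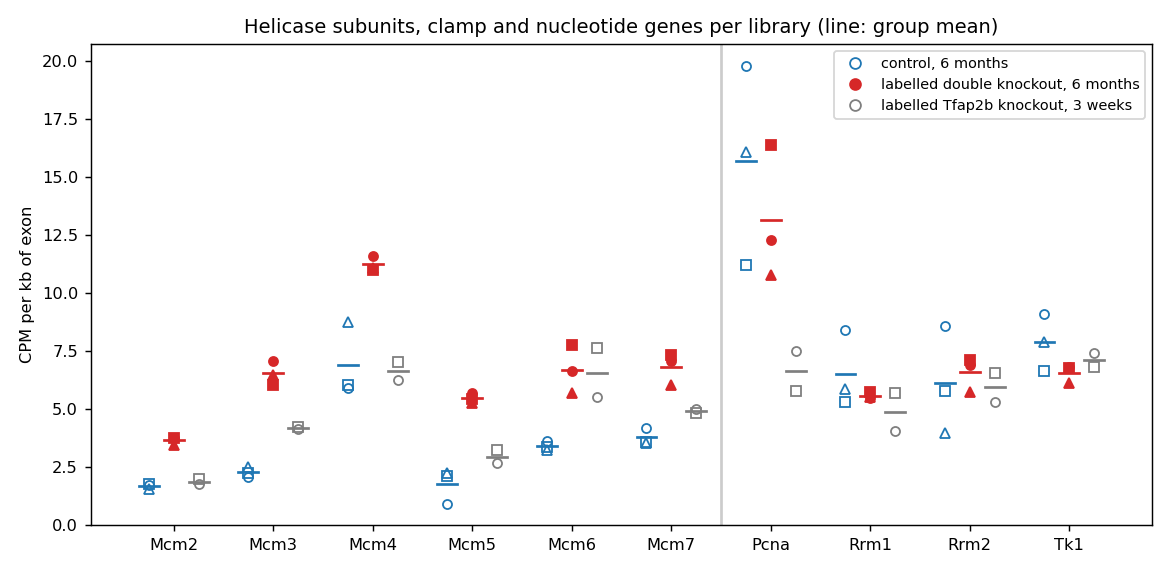
CPM per kb of exon in the 8 libraries with counts for the 6 MCM ring genes (left of the line) and for Pcna, Rrm1, Rrm2 and Tk1 (right). Shapes give the replicate number and short lines the group means. Each MCM gene separates the 2 groups from 6 months, whereas the 4 genes on the right overlap between them.

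Promoters of the ring's genes are shown next as sequence only, and whether their letters had a part in the rise was not tested. Sequences and start sites are those of RefSeq on GRCm38.p6, in a table of windows of 300 bases, from 250 before to 50 after each start. Letters of E2F-like sites (TTTCGCGC, TTTGGCGC or TTTCCCGC) and of the CCAAT box, both on either strand, are in capitals, and adjoining or overlapping matches run together. The first 2 stretches, of 160 bases up to the start site, are from genes that rose and hold both kinds of letters, Mcm5 (chr8:75109349-75109508, plus strand) and Mcm6 (chr1:128359706-128359865, minus strand).
Mcm5: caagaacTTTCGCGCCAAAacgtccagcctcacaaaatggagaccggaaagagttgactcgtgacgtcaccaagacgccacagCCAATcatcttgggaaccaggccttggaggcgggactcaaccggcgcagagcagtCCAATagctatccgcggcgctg
Mcm6: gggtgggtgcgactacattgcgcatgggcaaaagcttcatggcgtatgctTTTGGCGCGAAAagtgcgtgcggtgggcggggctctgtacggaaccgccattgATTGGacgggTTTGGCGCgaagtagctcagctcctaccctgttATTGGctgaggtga
In Mcm5 and Mcm6 a match to TTTCGCGC and a match to TTTGGCGC overlap on opposite strands, and Mcm6 holds another TTTGGCGC nearer the start. In the next 2 genes, which also rose, E2F-like matches lie just after the start site, and 30 bases around these are shown for Mcm3 (chr1:20820266-20820295, minus strand) and Mcm7 (chr5:138171849-138171878, minus strand).
Mcm3: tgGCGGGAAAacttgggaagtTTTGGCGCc
Mcm7: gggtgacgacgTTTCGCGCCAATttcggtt
The windows of Mcm3 and Mcm7 also hold CCAAT matches before the start that are not shown, and that of Mcm7 another TTTCCCGC, 165 bases before it.
Mcm2 (chr6:88898781-88898940, minus strand) rose as well but holds none of the E2F-like letters in its window, and its CCAAT match lies further upstream than the 160 bases shown.
Mcm2: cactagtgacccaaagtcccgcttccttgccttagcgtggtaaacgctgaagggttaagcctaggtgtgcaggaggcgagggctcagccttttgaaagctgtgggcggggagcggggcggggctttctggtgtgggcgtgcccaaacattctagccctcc
For contrast, Orc1 (chr4:108579294-108579453, plus strand) holds both kinds of letters and Pcna (chr2:132253181-132253340, minus strand) only a CCAAT match, and neither passed the test.
Orc1: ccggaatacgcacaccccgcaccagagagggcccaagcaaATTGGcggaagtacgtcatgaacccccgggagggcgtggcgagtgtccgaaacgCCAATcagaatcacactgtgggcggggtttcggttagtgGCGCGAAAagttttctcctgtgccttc
Pcna: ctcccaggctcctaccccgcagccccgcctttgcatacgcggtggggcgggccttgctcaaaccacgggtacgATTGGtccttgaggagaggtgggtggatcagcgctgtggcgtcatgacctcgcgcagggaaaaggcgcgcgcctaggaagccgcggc
A window was found for 34 of the 42 genes, and Mcm4, Pole, Gins1, Gins2, Gins4, Rfc2, Prim2 and Ccne2 had none. At least 1 of the 3 E2F-like letter strings was present for 14 of the 34 (41.2%), against 2.12% of the 27025 genes in the table. Among the members with a window they were present for 6 of 9 that rose and for 8 of 25 that did not pass the test. A gene with more than 1 window counted if any of them matched, as for Uhrf1, which matched in only 1. CCAAT was present for 20 of the 34 (58.8%, against 41.1% of all genes). TTTGAA, the core of the element called CHR, searched on both strands, was present for 4 (11.8%, against 20.2%). A match describes letters in the window and is not a measured binding site.

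The other 4 licensing genes, which place the ring on DNA, did not pass the test. Orc1, the large subunit of the origin recognition complex, was at 8.06, 4.06 and 2.28 CPM across the control libraries and at 9.34, 6.82 and 4.85 CPM across those labelled double knockout (log2 fold change 0.45, 95% interval -0.57 to 1.49). Orc6, another subunit of that complex, was at 13.4, 18.8 and 21.4 CPM against 17.02, 14.3 and 17.5 CPM (-0.21, -0.70 to 0.28), with the groups intermingled. Cdc6, the loading ATPase, was spread over 11.8, 7.42 and 3.25 CPM in the controls and lay within that range in the other group, at 5.07, 5.25 and 5.80 CPM (-0.54, -1.50 to 0.40). Cdt1, the protein that escorts the ring to the origin, was at 7.72, 6.89 and 6.18 CPM against 7.89, 8.18 and 10.1 CPM (0.25, -0.31 to 0.83), with every control just below the other group. The adjusted p-values of these 4 genes by edgeR were between 0.399 for Cdc6 and 0.547 for Orc6. Against control replicate 3 alone Cdc6 was higher, at a log2 fold change of 0.65.

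The 6 genes that turn the loaded ring into an active helicase had a median log2 fold change of 0.61, and none passed the test. Gins4, a subunit of the GINS complex, had the lowest adjusted p of the 6 (0.0775 by edgeR). Its level was 5.40, 6.89 and 5.73 CPM in the controls and 10.3 CPM in each of the libraries labelled double knockout, with a log2 fold change of 0.69 (SE 0.24). These groups were well apart. Mcm10, which helps to open the ring at origins, was at 1.99, 3.71 and 2.67 CPM against 3.91, 4.5 and 7.10 CPM (log2 fold change 0.79, 95% interval -0.07 to 1.72, adjusted p 0.186 by edgeR). Control replicate 2 nearly reached the lowest library of the other group. Gins3 (log2 fold change 0.59) was also above all controls in the 3 libraries, whereas Gins2 (0.64) and Cdc45 (0.32) overlapped. Gins1 was at 2.16, 4.77 and 3.00 CPM against 2.97, 2.93 and 2.59 CPM (-0.29, 95% interval -1.22 to 0.63), and was slightly positive, 0.058, without control replicate 2. Gins2 held only 6 to 29 counts per library and shares 67.3% of its exonic bases with Gse1 on the opposite strand, so its value is uncertain.

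Pcna, the sliding clamp and the member with the highest level per kb in both groups, was not among the genes that rose. It was at 47.5, 26.9 and 38.5 CPM across the control libraries and at 29.6, 39.3 and 25.9 CPM across those labelled double knockout (log2 fold change -0.33, 95% interval -0.86 to 0.20, adjusted p 0.368 by edgeR). The groups overlapped fully, with control replicate 1 the highest library. Its pseudogene Pcna-ps2 had 37, 66 and 1 counts across the control libraries and 94, 46 and 103 across the others, beside 305 to 592 for Pcna, and reads of the copies could be split between them. The clamp loader opens the clamp and places it on DNA. Its large subunit Rfc1 was at 36.5, 46.1 and 54.9 CPM across the control libraries and at 77.5, 62.2 and 62.0 CPM across those labelled double knockout (0.48, 0.08 to 0.87, adjusted p 0.0945 by edgeR). Rfc3, a small subunit, was likewise above all controls (0.63, adjusted p 0.145 by edgeR). Rfc2 was at 20.8, 14.8 and 12.6 CPM against 15.2, 20.9 and 17.9 CPM and overlapped (0.084), as did Rfc4 (-0.19). Rfc5 was at 37.6, 23.8 and 15.3 CPM across the control libraries and at 15.8, 18.4 and 14.4 CPM across those labelled double knockout (-0.73, adjusted p 0.131 by edgeR), and only control replicates 1 and 2 stood above the rest. Without control replicate 3, Rfc1 (0.71) and Rfc3 (0.88) passed as higher and Rfc5 (-0.91) as lower.

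All 7 genes of the replicative polymerases and primase had positive log2 fold changes, with a median of 0.47, and 1 passed the test. Pole (ENSMUSG00000007080, chromosome 5, 110286306 to 110337474, plus strand), the catalytic subunit of the leading-strand polymerase, was at 8.72, 17.1 and 15.2 CPM in the controls. The libraries labelled double knockout held 37.3, 35.5 and 25.5 CPM, a rise of 1.18 on the log2 scale (SE 0.26, adjusted p 0.0188 by edgeR). The groups did not overlap, with control replicate 1 the lowest. The change in Pole was 1.12 without replicate 1 and 1.15 without replicate 2 of the libraries labelled double knockout, and neither passed. Pold1, the catalytic subunit of the main lagging-strand polymerase, was at 5.90, 7.07 and 9.38 CPM against 14.8, 13.0 and 12.0 CPM (0.74, 95% interval 0.208 to 1.302, adjusted p 0.0654 by edgeR). Its groups were apart as well, and it passed without control replicate 3 (1.02), without a filter on low counts (0.84) and by the Wald test of DESeq2 (0.76). Pola2 (0.74), Pole2 (0.47) and Prim2 (0.42) also lay above all controls without passing. Pola1, the catalytic subunit of the priming polymerase and the only member on chromosome X, was at 25.2, 30.6 and 41.2 CPM across the control libraries and at 64.0, 38.5 and 37.0 CPM across those labelled double knockout (0.44, -0.11 to 1.00). Only replicate 1 of the libraries labelled double knockout stood above the controls. Without control replicate 3, Pola1 (0.74) and Pola2 (0.99) passed. Prim1, the primase catalytic subunit, was at 10.1, 12.8 and 18.4 CPM against 16.6, 18.2 and 17.5 CPM and overlapped through control replicate 3 (0.27, -0.26 to 0.80).

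Lig1, the DNA ligase that joins Okazaki fragments, rose. Lig1 (ENSMUSG00000056394, chromosome 7, 13277283 to 13311433, plus strand) was at 7.39, 11.4 and 12.1 CPM across the control libraries and at 19.3, 22.3 and 18.5 CPM across those labelled double knockout (log2 fold change 0.88, SE 0.23, adjusted p 0.0333 by edgeR). The groups were apart in all 6 libraries. It missed the threshold without control replicates 1 (0.70) or 2 (0.96) and without replicates 1 (0.95), 2 (0.83) or 3 (0.96) of the libraries labelled double knockout. Fen1, the flap nuclease that trims the fragments before ligation, was at 1.08, 0.883 and 1.69 CPM against 2.46, 2.45 and 2.54 CPM, on 10 to 45 counts. Its log2 fold change was almost that of Lig1 (0.87), but its interval ran from -0.13 to 2.02 and it did not pass (adjusted p 0.205 by edgeR). Fen1 shares 78.8% of its exonic bases with Gm10143 on the opposite strand, which held 1 to 14 counts, so the count for Fen1 may not represent the gene.

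Of the nucleotide supply genes none of 4 passed the test, and their median log2 fold change was -0.14. Rrm1, the large subunit of ribonucleotide reductase, was at 92.5, 58.6 and 64.5 CPM across the control libraries and at 60.2, 63.3 and 60.9 CPM across those labelled double knockout (-0.30, 95% interval -0.72 to 0.11). Rrm2, the small subunit, which is made mainly in S phase, was at 23.8, 16.0 and 11 CPM against 19.1, 19.8 and 15.9 CPM (0.031, -0.59 to 0.65, adjusted p 0.9503 by edgeR). In both genes control replicate 1 was the highest of the 6 libraries and the other group lay within the range of the controls. Tk1, the thymidine kinase of the salvage route, was at 47.3, 34.5 and 41.0 CPM against 35.3, 35.2 and 31.8 CPM (-0.34, -0.71 to 0.03, adjusted p 0.192 by edgeR). Tyms, which makes thymidylate, was at 14.9, 13.7 and 12.4 CPM against 19.2, 21.8 and 17.5 CPM (0.43, adjusted p 0.159 by edgeR). Tyms was the only 1 of the 4 with every library labelled double knockout above the controls. Whether these genes changed less than the MCM genes was not tested.

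E2f1, a transcription factor that activates many genes of S phase, showed the largest fold change of the 42 genes. E2f1 (ENSMUSG00000027490, chromosome 2, 154559407 to 154569892, minus strand) was at 2.16, 2.30 and 1.302 CPM across the control libraries and at 8.62, 7.84 and 6.20 CPM across those labelled double knockout. These levels rested on 20 to 26 counts per control and 110 to 119 per library of the other group. The log2 fold change was 1.83 (SE 0.36, adjusted p 0.0103 by edgeR), and the groups were widely apart. It was 1.78 and just outside the threshold (adjusted p 0.0577 by edgeR) without replicate 1 of the libraries labelled double knockout. Cyclin E, encoded by Ccne1 and Ccne2, activates CDK2 at the start of S phase. Ccne2 was at 10.96, 6.71 and 8.01 CPM against 9.34, 9.54 and 12.3 CPM (0.20, adjusted p 0.628 by edgeR) and Ccne1 at 4.90, 1.85 and 0.781 CPM against 1.74, 2.25 and 3.77 CPM (-0.023, 95% interval -1.47 to 1.43). Both overlapped, and the interval for Ccne1 is too wide to give it a direction.

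Among the genes that act on new chromatin, Chaf1a and Uhrf1 rose. Chaf1a (ENSMUSG00000002835, chromosome 17, 56040416 to 56068026, plus strand), the large subunit of the histone chaperone CAF-1, was at 3.07, 4.68 and 5.21 CPM across the control libraries and at 9.27, 10.98 and 10.03 CPM across those labelled double knockout (log2 fold change 1.12, SE 0.29, adjusted p 0.0282 by edgeR). Uhrf1 (ENSMUSG00000001228, chromosome 17, 56303321 to 56323486, plus strand), which brings the maintenance DNA methyltransferase to new DNA, was at 13.6, 17.6 and 13.9 CPM against 25.2, 34.6 and 21.6 CPM (0.77, SE 0.23, adjusted p 0.0459 by edgeR). Neither gene's groups overlapped. Neither call held in every fit with 1 library left out. Chaf1a missed the threshold without control replicates 1 (0.94) or 2 (1.19) or without replicates 1 (1.23), 2 (1.09) or 3 (1.16) of the libraries labelled double knockout, and Uhrf1 without control replicates 1 (0.71) or 2 (0.90) or replicates 1 (0.87) or 2 (0.60) of the other group. Chaf1a shares 18.7% of its exonic bases with Ubxn6 on the opposite strand. Such overlaps were also present in other members, among them Ccne2 (17.4%), Rfc2 (15.1%), Rfc4 (12.6%), Orc1 (10.8%) and Rfc5 (10.7%). Lig1, which rose, shares 5.79% with Zswim9. Chaf1b, the middle subunit of CAF-1, was at 3.57, 7.51 and 3.45 CPM against 8.11, 8.39 and 5.52 CPM and overlapped through control replicate 2 (0.51, adjusted p 0.365 by edgeR). Slbp, which binds the stem-loop of replication-dependent histone mRNAs, was the 1 member with every library labelled double knockout below every control. It was at 50.9, 27.5 and 22.7 CPM across the control libraries and at 17.2, 20.5 and 21.2 CPM across the other group (-0.85, SE 0.29, adjusted p 0.0795 by edgeR). Control replicate 1 stood far above the other controls, and replicate 3 of each group nearly met. Slbp passed as lower without control replicate 3 (-0.99), without a filter on low counts (-0.72) and by the Wald test of DESeq2 (-0.86).

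Control replicate 1 was the lowest of the 6 libraries for 19 of the 42 genes and the highest for 9. Control replicates 2 and 3 were the lowest for 5 and 14 genes and the highest for 1 and 2. The libraries labelled double knockout, replicates 1 to 3, were the highest for 13, 10 and 7 genes and the lowest for 1, 0 and 3. The summed level of the 42 genes was 640, 560 and 582 CPM across the control libraries and 806, 794 and 724 CPM across the other group. Rrm1, Pcna, Tk1 and Slbp, 4 members that did not rise, made up a part of that sum in every library.

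In the 2 libraries labelled Tfap2b knockout, from 3 weeks of age, all 42 genes held more than 3 counts. Both libraries lay below every library labelled double knockout for 10 of the 11 genes that rose, the exception being Mcm6 at 25.8 and 35.5 CPM. They lay above every control from 6 months for 8 of the 11, among them Mcm3 at 15.6 and 15.8 CPM and E2f1 at 5.94 and 4.32 CPM. The 11 were picked for levels high in the libraries labelled double knockout and low in those controls. Both counts therefore follow in part from that choice and show no intermediate state. Over all 42 genes both libraries were above those controls for 10 and below for 6, including Pcna at 18.0 and 13.8 CPM. The share of all genes tested that lay above or below in this way was not counted. These numbers are therefore not read as a trait of the 42 genes. The 2 libraries also differed from each other in markers of other cell types. Summed fibroblast markers were at 3085 CPM in replicate 1 and 144 CPM in replicate 2. Endothelial markers were at 426.5 and 0.560 CPM, and sebaceous markers at 14440 and 990 CPM. Age and genotype both differ from those of the libraries from 6 months, so these values are set side by side and no difference was tested.

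Of 99 further genes of the pathway, 98 were tested, and 20 (20.4%) were higher and 7 (7.14%) lower, against 6.26% and 8.59% of all genes. Among 36 other fork and origin genes 5 were higher and 1 lower, with a median log2 fold change of 0.41. Top2a, the topoisomerase that untangles replicated DNA, was at 29.1, 38.5 and 46.7 CPM across the control libraries and at 86.6, 107 and 71.8 CPM across those labelled double knockout (1.14, adjusted p 0.00824 by edgeR). Dna2, a nuclease and helicase that processes long flaps, rose from 1.91, 2.92 and 1.69 CPM to 6.66, 7.43 and 5.18 CPM (1.44, adjusted p 0.0266 by edgeR). Orc3 showed almost the same level in both groups (-0.0077, adjusted p 0.979 by edgeR). Of 16 other nucleotide genes 5 were higher and none lower. Cad, which starts pyrimidine synthesis, was at 28.2, 27.1 and 32.0 CPM against 79.6, 74.4 and 56.5 CPM (1.19, adjusted p 0.00288 by edgeR), and Dtymk, the thymidylate kinase, at 9.63, 9.01 and 9.44 CPM against 19.2, 20.1 and 15.7 CPM (0.88, adjusted p 0.0199 by edgeR). Both were thus raised in all 3 libraries, whereas Umps, the last step of that synthesis, had a log2 fold change of -0.026 (adjusted p 0.970 by edgeR). Of 10 other chromatin genes 4 were higher and none lower. The histone chaperone gene Asf1b had a log2 fold change of 1.71 (adjusted p 0.0226 by edgeR) and the helicase gene Hells of 0.87 (adjusted p 0.0227 by edgeR), and Casp8ap2 of 0.084 did not pass (adjusted p 0.737 by edgeR).

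The 18 other activators of the step from G1 to S held 4 higher genes and 1 lower. Ccna2, cyclin A of S phase and mitosis, was at 4.73, 9.81 and 13.7 CPM across the control libraries and at 33.8, 45.7 and 35.05 CPM across those labelled double knockout (1.93, adjusted p 0.00746 by edgeR). Ccnd1, a cyclin of G1, was at 67.6, 55.0 and 60.2 CPM against 109, 94.8 and 131 CPM (0.80, adjusted p 0.0135 by edgeR). Its paralog Ccnd2 moved the other way, from 360, 367 and 350 CPM to 222, 268 and 266 CPM (-0.58, adjusted p 0.0193 by edgeR). Cks1b was at 0.039 (adjusted p 0.954 by edgeR). A list of 19 genes taken as brakes on that step, of which 18 were tested, held 5 lower genes and 2 higher, with a median of -0.16. The Lin genes in it do not act only as brakes. Cdkn1c, which encodes the CDK inhibitor p57, was at 3.40, 1.85 and 2.02 CPM against 0.290, 0.273 and 0.282 CPM, on 21 to 41 and 4 to 5 counts (-2.67, adjusted p 0.0108 by edgeR). The other lower genes of that list were Rb1, Lin54, Cdkn1a and Cdkn2b. The higher ones were Lin9 and Rbl1, the gene of the pocket protein p107, itself made in proliferating cells (0.81, adjusted p 0.0219 by edgeR). Lin52 was at -0.035 (adjusted p 0.923 by edgeR).

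**Figure D4:**
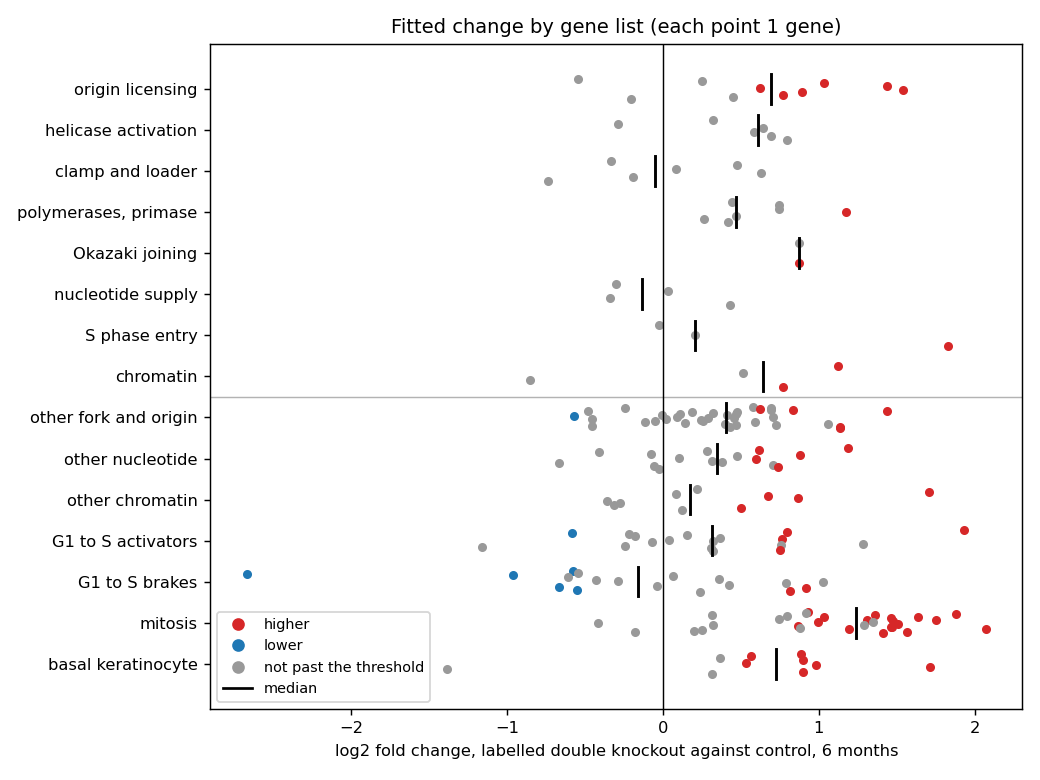
Fitted log2 fold change of each tested gene in the 8 role groups of the 42 genes (above the line), the 5 other pathway lists, 30 mitosis genes and 10 basal keratinocyte markers. Black bars are list medians. Red points passed the test as higher and blue points as lower, and the mitosis list has the largest median shown, 1.24.

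Mitosis genes act after replication is complete, and 18 of 30 (60.0%) were higher and none lower, with a median log2 fold change of 1.24 beside the 0.47 of the 42 genes. Their summed level was 310, 447 and 526 CPM across the control libraries and 862, 1051 and 740 CPM across those labelled double knockout. Of 10 basal keratinocyte markers, 7 were higher and none lower, with summed levels of 9754 to 12320 CPM in the controls and 18220 to 21540 CPM in the other group. Krt15, a keratin of basal and follicle stem cells, differed in direction from the other 9. It was at 728, 1164 and 1187 CPM across the control libraries and at 234, 673 and 330 CPM across those labelled double knockout, without overlap (-1.39, adjusted p 0.0513 by edgeR). Of 8 wound and stress keratinocyte markers 4 were higher, from 466 to 730 CPM summed in the controls to 3500 to 4680 CPM. In these bulk libraries more cells of a type and more RNA per cell cannot be told apart, and the part of these cell populations in the rise of the replication genes was not tested. Hair matrix and shaft genes, most of them keratins of the hair and its sheath and not genes of dividing cells, were not higher. All 10 tested had negative log2 fold changes. The 2 that passed as lower, Lef1 (-2.38) and Msx2 (-1.22), are not keratin genes. Sums over the list were 76.2 to 93.3 CPM against 45.6 to 72.1 CPM. Krt31 was at 0 in replicate 1 of the libraries labelled double knockout. Summed T cell markers were at 104 to 184 CPM against 104 to 231 CPM, with 1 of 9 tested genes, Thy1, higher and 1, Cd8a, lower. Of the 9, 7 had negative log2 fold changes, and Thy1 was at 17.3, 31.45 and 21.1 CPM against 102.5, 89.7 and 56.9 CPM. Summed Langerhans and myeloid markers were at 631 to 867 CPM against 521 to 802 CPM, with 1 of 10 lower. Fibroblast markers were at 126 to 282 CPM against 87.2 to 157 CPM, with 3 of 8 lower. Lum was at 0 in replicate 1 of the libraries labelled double knockout. For 6 of the 8, every library so labelled lay below every control (16.3% of all genes tested did). Vim, which did not pass, held much of these sums, at 72.7, 123 and 78.85 CPM against 145.3, 89.7 and 63.6 CPM. Of the remaining lists, suprabasal keratinocytes (10 genes) and hair follicle stem cells (8 genes) each held 1 higher and 2 lower genes, and 3 of 8 tested sebaceous genes were lower, whereas none of 6 melanocyte and 5 endothelial genes passed. No marker was at 0 in every library. The part of these populations was not tested either.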

How the data were processed

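Total RNA of mouse epidermis was depleted of ribosomal RNA and sequenced in paired reads, per the labels' protocols. The authors deposited whole-number counts per gene. The submitters' processing notes name Trimmomatic 0.36, STAR 2.5.2b and featureCounts of Subread 1.5.2, and the builds GRCm38 and GRCh38. Coordinates are those of the deposited tables, read as GRCm38. Of the 48970 identifiers found in GENCODE M21, which gave the symbols, all lay on the same chromosome there and 44772 had the same start and end. Whether counting used strand, and how reads with several matches were treated, was not given in the sources used here.

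Samples were grouped by their titles. The 6 libraries from 6 months were fitted across all genes with edgeR 4.0.16 in R 4.3.3 (filterByExpr, TMM factors, robust glmQLFit with a prior count of 2, glmQLFTest). P-values were adjusted by Benjamini-Hochberg over the 17755 genes tested, with a threshold of 0.05. Standard errors and 95% intervals were derived from the coefficient without shrinkage and its F statistic. CPM values use total counts without TMM factors. The steps were tested on simulated counts, with changes larger than that of any member and without the receptor-gene background. That test does not cover calls of changes as small as those of the members. Members, lists and tests were chosen with earlier results of these data known. All members are described by role. The rule gave values in each library for the 2 members with the lowest and the 1 with the highest adjusted p in each role group, and named the same 3 of each other pathway list. Further values and genes were chosen after they were seen.

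The alternatives were median-ratio size factors, total counts, no filter, at least 10 counts in every library, DESeq2 1.42.0, limma-voom (limma 3.58.1), a replicate block, all 8 libraries in 1 fit, subtraction of the density of counts in 1420 receptor genes, and each library left out in turn. Leaving out control replicates 1 and 2 together was chosen after seeing the data.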

Additional observations from a re-analysis of the deposited data

Results flagged for a closer look

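The 2 libraries labelled Tfap2b knockout from 3 weeks entered no comparison, because the control files of that age listed every gene at 0. They hold signal all the same: all 42 replication and G1 to S genes had more than 3 counts in both, which is above what a count of 0 allows. Sets of 3 libraries are too small for a check of single outlying samples.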

How the results depend on the processing

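Against the 11 members called higher and 0 lower, 2637 genes called in all and a median log2 fold change of the members of 0.47, the 16 alternatives gave 2 to 16 members higher. Leaving out 1 library at a time gave 2 to 16 members higher, 0 to 2 lower, 668 to 7542 genes called and medians of 0.437 to 0.606. The lowest counts came without replicate 1 of the libraries labelled double knockout and the highest without control replicate 3. Without a filter 4809 genes were called, 13 members were higher and 1, Slbp, lower, and the median was 0.583. DESeq2 called 12 higher and 1, Slbp, lower. The median of the members was 0.545 with total counts, which moved the median of all genes from -0.035 to 0.038 and the share of higher genes among those called from 42.1% to 52.2%, and 0.547 with limma-voom. All 8 libraries in 1 fit called 1546 genes, with a median over all genes of -0.144. With control replicates 1 and 2 left out, chosen after seeing the data, 437 genes and 4 members were called. Of the 11 members, Mcm2 and Mcm3 were called in every alternative, Mcm5 and E2f1 in all but 1, Pole in all but 3, Mcm6 and Mcm7 in all but 4, Lig1 and Chaf1a in all but 7, Uhrf1 in all but 9 and Mcm4 in all but 10. The cause of these losses was not tested, beyond the fewer libraries where some were left out.

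The replicate numbers did not pair the libraries: same-numbered deviations correlated at -0.161 to 0.027, and 1 of 6 libraries correlated best with its own number. With the replicate block 7 members and 1729 genes were called, and Mcm4, Lig1, Chaf1a and Uhrf1 were lost.

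Changes of sign were seen only in members that did not pass the test. Ccne1, at -0.023, was at 0.054 with total counts, 0.114 without a filter, 0.415 with limma-voom, 0.206 with the replicate block, 0.032 with all 8 libraries, 0.091 after background subtraction and 1.538 without control replicates 1 and 2, and ranged from -0.356 to 0.863 with 1 library left out. Rrm2, at 0.031, was at -0.009 with at least 10 counts and -0.017 after background subtraction, and ranged from -0.119 to 0.367. The same ranges were -0.426 to 0.119 for Rfc4, -0.500 to 0.058 for Gins1 and -0.368 to 0.025 for Orc6. Without control replicates 1 and 2 the log2 fold change was 0.649 for Cdc6, 0.791 for Rfc4, 0.025 for Rfc5 and -0.129 for Prim1. Scarce members such as Gins2, with 6 to 29 counts per library, have the widest counting error.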
